A study of Homo sapiens with 28 samples.

Results

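The enzymes that make serine and pass its carbon to folate were measured in 4 human hepatoma lines, as 10 of the 18961 amplicons of the deposited table. The rows were taken by gene symbol: PHGDH, PSAT1 and PSPH of serine synthesis, the serine hydroxymethyltransferases SHMT1 and SHMT2, and the folate enzymes MTHFD1, MTHFD1L, MTHFD2, ALDH1L1 and ALDH1L2. All 10 symbols were found, and 9 of them had enough reads to be tested. ALDH1L2 had not.

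The study set tumours grown in ovo against the same lines grown in vitro. For HepG2, Hep3B, HuH7 and PLC/PRF/5, per the labels' protocols, cells were laid on the chorioallantoic membrane of white leghorn chick embryos on embryonic day 9, and the tumours were taken on day 18. Each line had 4 in ovo libraries and 3 in vitro libraries, 28 in all, with no further treatment or allele named in the labels. The chorioallantoic membrane is a vascular membrane of the egg, so a tumour on it can hold chick cells beside the human ones, and the amplicons were designed for human transcripts. HepG2 is a line from a hepatoblastoma, Hep3B, HuH7 and PLC/PRF/5 come from hepatocellular carcinomas, and each is 1 established line. Nothing in the labels says that libraries of a group came from separate cultures or eggs, so a p value here speaks of the scatter among these libraries alone, and that scatter may be technical. RNA came through a mini column kit from cultures and through a midi column kit from tumours, so kit and condition cannot be told apart. The column names of the table begin with what reads like a plate position, and no plate column holds libraries of both conditions, so these cannot be told apart either.

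Serine is made from a glycolytic intermediate in a chain of reactions. PHGDH oxidises it, PSAT1 adds the amino group and PSPH removes the phosphate. SHMT1 in the cytosol and SHMT2 in mitochondria then move a carbon from serine to tetrahydrofolate and leave glycine. MTHFD2 and MTHFD1L carry that carbon to formate in mitochondria, MTHFD1 takes formate up again in the cytosol for purine and thymidylate synthesis, and ALDH1L1 and ALDH1L2 burn formyl groups to CO2. In liver, SHMT1 and ALDH1L1 are abundant enzymes of the hepatocyte, while MTHFD2 is low in most adult tissues and high in many tumours. PHGDH, PSAT1, SHMT2 and MTHFD2 are known targets of the stress-induced transcription factor ATF4.

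Each level below rests on the reads of 1 short amplicon per gene. The amplicons of 5 enzymes that the results turn on are shown because the in ovo differences varied with amplicon length and GC content. Sequences are those of the deposited table, 5′ to 3′ along the transcript, and capitals mark the 4 bases on each side of a join between exons. All 5 lie in coding exons of GRCh38. PSAT1 spans exons 5 and 6 at chr9:78306412-78308495 (plus strand), with 157 bases. SHMT1 lies within exon 12 at chr17:18328771-18328919 (minus strand), with 149 bases and no join. SHMT2 spans exons 7 to 9 at chr12:57232798-57233598 (plus strand), with 248 bases. MTHFD1 spans exons 12 to 14 at chr14:64427470-64431608 (plus strand), with 128 bases. MTHFD2 spans exons 7 and 8 at chr2:74211768-74214133 (plus strand), with 154 bases.
PSAT1: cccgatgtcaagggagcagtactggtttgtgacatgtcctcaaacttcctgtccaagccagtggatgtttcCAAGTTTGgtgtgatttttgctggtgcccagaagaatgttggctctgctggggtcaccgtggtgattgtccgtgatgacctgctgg
SHMT1: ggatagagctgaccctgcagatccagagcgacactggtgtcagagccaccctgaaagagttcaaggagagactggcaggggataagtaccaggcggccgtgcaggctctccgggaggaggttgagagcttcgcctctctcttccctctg
SHMT2: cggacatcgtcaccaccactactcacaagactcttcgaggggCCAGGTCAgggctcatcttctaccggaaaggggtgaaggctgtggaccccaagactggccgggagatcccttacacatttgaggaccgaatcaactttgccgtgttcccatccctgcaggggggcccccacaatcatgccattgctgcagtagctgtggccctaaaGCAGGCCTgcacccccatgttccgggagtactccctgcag
MTHFD1: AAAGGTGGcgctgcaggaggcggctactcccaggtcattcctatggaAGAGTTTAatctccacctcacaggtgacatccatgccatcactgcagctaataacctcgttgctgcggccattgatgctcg
MTHFD2: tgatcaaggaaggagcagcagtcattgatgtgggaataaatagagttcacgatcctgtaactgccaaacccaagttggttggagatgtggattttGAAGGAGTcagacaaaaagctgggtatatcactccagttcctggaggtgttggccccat

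The remaining amplicons had 244 bases (PHGDH), 136 bases (PSPH, exons 7 and 8), 199 bases (MTHFD1L, exons 1 to 4), 111 bases (ALDH1L1, exons 19 and 20) and 266 bases (ALDH1L2, exons 16 to 19). Reads of 3 of the amplicons could in part come from processed pseudogenes, since 43.5% of the 20-base words of the PSAT1 amplicon also stand in PSAT1P3, 37.6% of those of MTHFD1 in MTHFD1P1 and 30.4% of those of MTHFD2 in MTHFD2P7. A transcript on the opposite strand, AC006030.1, shares 31.9% of the words of MTHFD2. How the authors assigned such reads is not given in the sources used here.

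Depth was 6085750 to 15086465 reads in the in ovo libraries and 6205368 to 8662998 in the in vitro libraries, and 3 reads, the floor used here, stood for 0.251 to 0.806 CPM (CPM relates the reads of an amplicon to all reads of its library, after TMM scaling between libraries). Libraries of a line correlated at 0.871 to 0.993 in ovo and at 0.991 to 0.996 in vitro. The labels give the in ovo libraries numbered 3 the letter D and those numbered 4 the letter E in all 4 lines, without saying what a letter marks. Across lines, the deviations of the D libraries from their group means correlated at 0.117 to 0.862 in all 6 pairs (median 0.545), those of the E libraries at 0.0317 to 0.619 in 6 pairs (0.142), and those of 77 pairs with different letters at -0.794 to 0.794 (0.00). The mean over lines takes libraries of a letter as independent, and with the letter as a random effect (correlation 0.167), an alternative chosen after the data were seen, it called 6 enzymes, as without it. Olfactory receptor amplicons, 392 in all, were read at 5.61% to 51.8% in ovo and at 2.04% to 7.91% in vitro. Long amplicons were lower in ovo. Across 13100 genes the log2 difference in ovo minus in vitro had a Spearman correlation with amplicon length of -0.29 in HepG2, -0.49 in Hep3B, -0.34 in HuH7, with -0.21 in PLC/PRF/5, given as a description since genes are not independent. Summed over 10 hepatocyte markers, the in ovo and the in vitro libraries held 153124 to 270761 against 88410 to 95726 CPM in HepG2, 177757 to 327771 against 26773 to 28716 in Hep3B, and 4806 to 8001 against 14770 to 15119 in HuH7. PLC/PRF/5 held 778 to 2054 CPM in ovo and 22.4 to 29.2 in vitro, where 6 of the 10 markers averaged under 1 CPM and 2 were at 0 in every library, so in culture that line had almost no RNA of the hepatocyte markers.

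Of the 9 enzymes tested, 4 were lower and 0 higher in ovo in HepG2, 5 lower and 0 higher in Hep3B, 6 lower and 0 higher in HuH7, and 1 lower and 0 higher in PLC/PRF/5, by limma on log2(CPM + 1) with adjusted p under 0.05. The tests over all genes called 12.4% lower and 12.6% higher in HepG2, 26.7% lower and 25.3% higher in Hep3B, 19.5% lower and 23.9% higher in HuH7, and 5.62% lower and 11.7% higher in PLC/PRF/5. Lower calls made up a larger share of these enzymes than of all genes in HepG2, Hep3B and HuH7. In PLC/PRF/5 the share rests on 1 enzyme, which is not called without in vitro replicate 2. In the mean over lines 6 were lower and 0 higher, against 31.9% and 34.4% of all genes. At an unadjusted p under 0.05, 1 enzyme was higher in HepG2 and 0 in Hep3B, HuH7, PLC/PRF/5 and the mean. edgeR called 1 higher in HepG2, 1 in Hep3B, 0 in HuH7, 0 in PLC/PRF/5 and 1 in the mean, and DESeq2 called 1, 1, 0, 0 and 0. The median log2 difference of the 9 enzymes was -0.71 in HepG2, -0.65 in Hep3B, -1.04 in HuH7, with -0.32 in PLC/PRF/5, beside medians of 0.00, -0.03, 0.02 and 0.07 over all genes. Without overlap, 6 of all 10 enzymes (5 of the 9 tested) had every in ovo library below every in vitro library in HepG2 and 1 had every one above, against 20.4% and 18.8% of the genes tested. The same count was 5 below and 0 above in Hep3B (28.2% and 27.5% of genes), 6 below and 0 above in HuH7 (22.6% and 25.8%), and 3 below and 0 above in PLC/PRF/5 (16.3% and 23.4%). RNA of a whole sample cannot tell fewer cells of a kind from less RNA per cell.

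**Figure D1:**
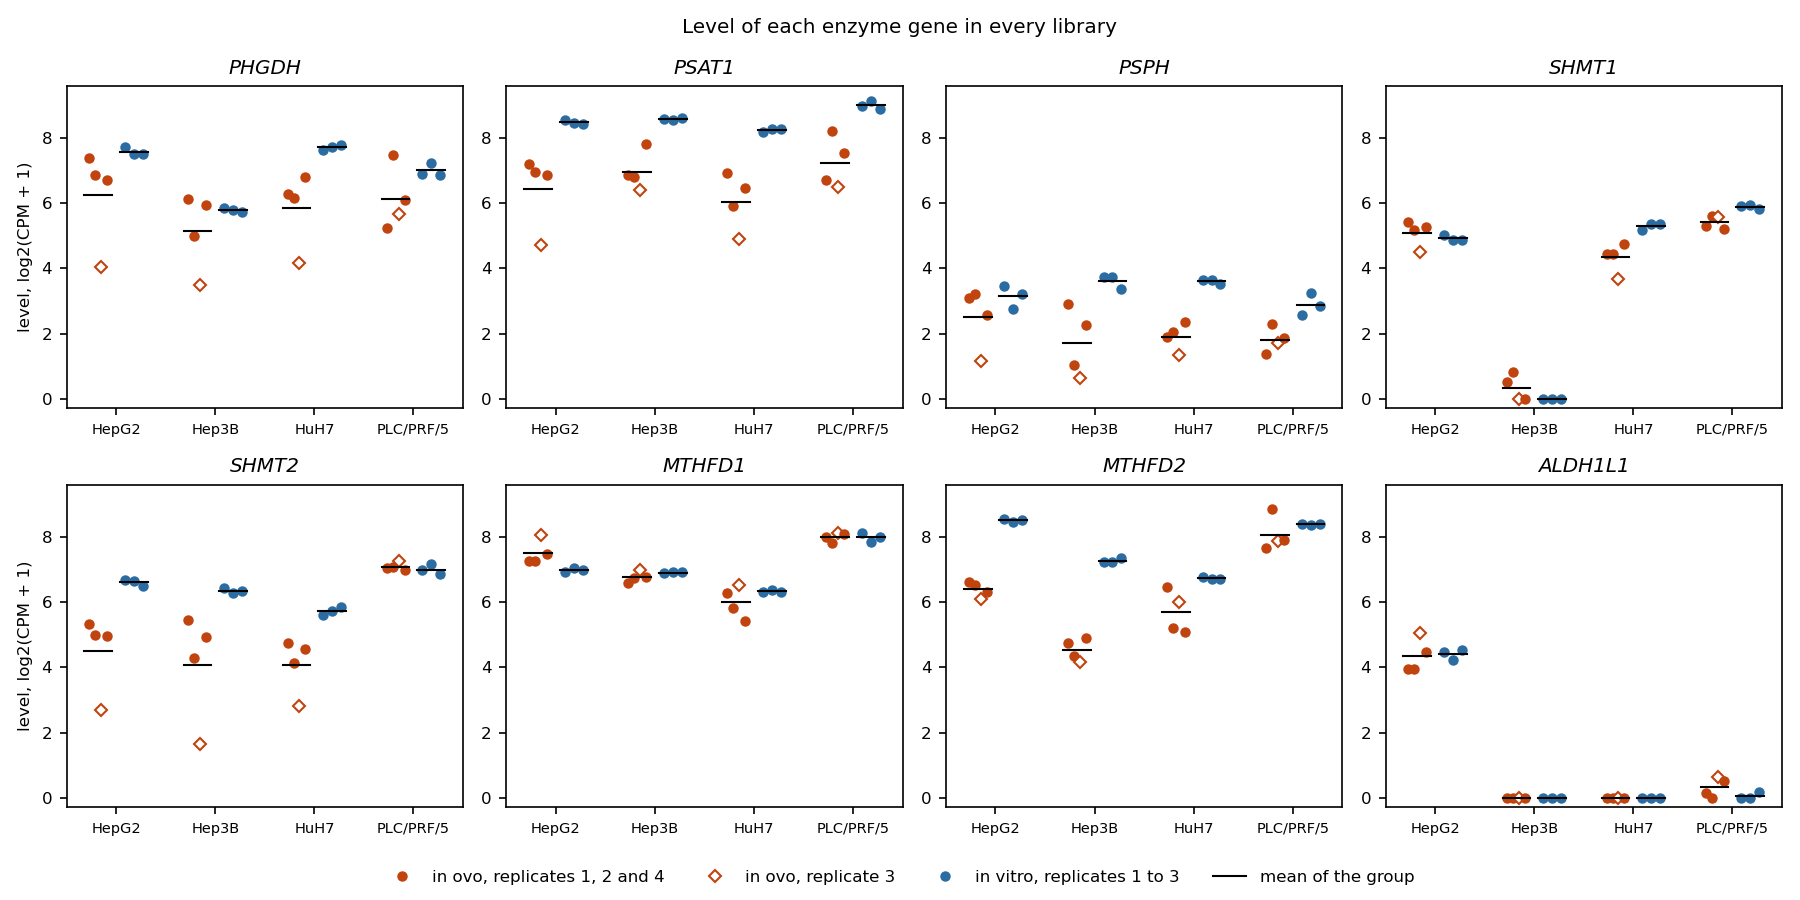
Level of each of 8 enzymes as log2(CPM + 1) in every library, by line, with in ovo libraries (orange, left) beside in vitro libraries (blue, right). Open diamonds are the in ovo libraries numbered 3 and black lines are group means. PSAT1 has no overlap between in ovo and in vitro in any line, and SHMT1 is at or near 0 in Hep3B.

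PSAT1, the aminotransferase of serine synthesis, was the one enzyme called in every line, 3.06 to 4.58-fold lower in ovo. In HepG2 its level was 148, 122, 25.3 and 116 CPM in ovo, against 378, 353 and 346 CPM in vitro. In Hep3B it was 115, 110, 83.0 and 226 CPM in ovo, against 386, 374 and 388 CPM in vitro. Each in ovo library of both lines lay below each in vitro library. HuH7 had 120, 59.1, 28.8 and 87.1 CPM in ovo, against 289, 307 and 310 CPM in vitro. PLC/PRF/5 had 105, 298, 90.1 and 185 CPM in ovo, against 509, 564 and 473 CPM in vitro. The groups again did not overlap, and the in ovo library numbered 3 was the lowest of its group in all 4 lines.

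The log2 difference of PSAT1 was -2.05 in HepG2 (adjusted p = 0.00239), -1.61 in Hep3B (0.00751), -2.20 in HuH7 (0.000867), with -1.76 in PLC/PRF/5 (0.0123), each with a standard error of 0.48. In the mean over lines it was -1.91 ± 0.24 (SE, adjusted p = 4.87e-07), a 3.75-fold lower level on that scale. Of the 13100 genes, 79 were called lower in all 4 lines, 0.603%. The 4 lines did not differ detectably in the size of the fall (interaction, adjusted p = 0.861). With the in ovo libraries numbered 3 left out, the differences were -1.46, -1.44, -1.80 and -1.51, all called. With the trends of each library with GC content and amplicon length removed they were -1.93, -1.27, -1.92 and -1.64, also all called. Leaving out PLC/PRF/5 in vitro replicate 2 put the PLC/PRF/5 difference at -1.69 with an adjusted p of 0.0547.

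PHGDH, which commits the glycolytic intermediate to serine, was lower in HuH7 and not called in the other lines. HuH7 had 76.5, 70.3, 16.8 and 111 CPM in ovo, against 200, 210 and 220 CPM in vitro, with no overlap. HepG2 had 165, 116, 15.5 and 105 CPM in ovo, against 212, 181 and 182 CPM in vitro, also with no overlap. The in ovo spread of PHGDH was wide in both lines, and the library numbered 3 was far under the other in ovo libraries. Hep3B had 69.1, 31.0, 10.2 and 60.2 CPM in ovo, against 56.2, 54.2 and 52.5 CPM in vitro. The libraries of PLC/PRF/5 held 37.0, 179, 49.9 and 68.0 CPM in ovo, against 119, 149 and 117 CPM in vitro. In these lines in ovo libraries lay on both sides of the in vitro range.

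The log2 difference of PHGDH was -1.87 in HuH7 (adjusted p = 0.0268). It was -1.33 in HepG2 (adjusted p = 0.153, 95% interval -2.71 to 0.05), -0.65 in Hep3B (0.434, -2.03 to 0.73) and -0.88 in PLC/PRF/5 (0.418, -2.26 to 0.50). The mean over lines, -1.18 ± 0.33 (SE), was called (adjusted p = 0.00353), and the lines were not shown to differ (interaction, adjusted p = 0.669). The HuH7 call was lost without in ovo replicate 3 (-1.31, adjusted p = 0.12) and without any 1 of the 3 in vitro libraries (0.06 to 0.0702). With all 4 in ovo libraries numbered 3 left out, it was -1.30 (adjusted p = 0.00494) and the mean over lines -0.68 (0.00224). The amplicon of PHGDH is long and rich in GC. With both trends removed the HuH7 difference was -1.92 (adjusted p = 0.0127) and the mean -1.09 (0.00299).

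PSPH, the phosphatase that releases serine, had low levels, between 0.538 and 12.3 CPM. It was lower in Hep3B, with 6.57, 1.03, 0.538 and 3.75 CPM in ovo, against 12.3, 12.2 and 9.39 CPM in vitro. It was lower in HuH7 too, with 2.70, 3.11, 1.54 and 4.08 CPM in ovo, against 11.5, 11.4 and 10.6 CPM in vitro. Neither line had any overlap. HepG2 had 7.49, 8.23, 1.22 and 4.95 CPM in ovo, against 10.1, 5.75 and 8.27 CPM in vitro. The values of PLC/PRF/5 were 1.61, 3.93, 2.27 and 2.60 CPM in ovo, against 4.95, 8.47 and 6.19 CPM in vitro, with no overlap. The log2 difference of PSPH was -1.91 in Hep3B (adjusted p = 0.00115), -1.70 in HuH7 (0.00414) and -1.33 ± 0.22 in the mean (SE, 2.07e-05). It was -0.64 in HepG2 (adjusted p = 0.317, 95% interval -1.57 to 0.28) and -1.08 in PLC/PRF/5 (0.101, -2.0 to -0.15). PLC/PRF/5 was called with its line fitted alone (-1.19, adjusted p = 0.0113), by DESeq2 (-1.44, 0.0241) and without the in ovo libraries numbered 3 (-1.06, 0.0243).

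SHMT2, the mitochondrial enzyme that splits serine, was lower in HepG2, Hep3B and HuH7 and not called in PLC/PRF/5. In HepG2 it had 39.4, 30.8, 5.51 and 30.5 CPM in ovo, against 103, 98.6 and 88.6 CPM in vitro. In Hep3B it had 43.0, 18.5, 2.15 and 29.8 CPM in ovo, against 84.8, 77.5 and 81.0 CPM in vitro. In HuH7 it had 25.7, 16.4, 6.01 and 22.9 CPM in ovo, against 48.2, 52.6 and 56.9 CPM in vitro. In these 3 lines every in ovo library was under every in vitro library, and the library numbered 3 was the lowest. PLC/PRF/5 had 132, 133, 154 and 125 CPM in ovo, against 126, 142 and 115 CPM in vitro, and there the groups overlapped.

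The log2 difference of SHMT2 was -2.10 in HepG2 (adjusted p = 0.0134), -2.27 in Hep3B (0.00385) and -1.68 in HuH7 (0.0313), each with a standard error of 0.62. It was 0.09 in PLC/PRF/5 (adjusted p = 0.957, 95% interval -1.18 to 1.37) and -1.49 in the mean over lines (0.000218). The fit gives each gene 1 estimate of spread for all 8 groups, so the PLC/PRF/5 interval holds the scatter of the other lines. The PLC/PRF/5 libraries themselves held 136 ± 12.4 CPM in ovo and 128 ± 13.8 CPM in vitro (SD). The fall in Hep3B differed from the response of PLC/PRF/5 by -2.36 log2 units (adjusted p = 0.0481), a call that held in 10 of 27 alternatives, while the test over all 4 lines missed the threshold (interaction, adjusted p = 0.0943). Without the in ovo libraries numbered 3 the differences in the called lines were smaller, -1.49 in HepG2, -1.48 in Hep3B and -1.25 in HuH7. PLC/PRF/5 then stood at 0.03, with a standard error of 0.20 in each line, and the interaction had an adjusted p of 0.000249. Without HepG2 in ovo replicate 3 alone, the HepG2 difference was -1.50 (adjusted p = 0.0647). Without HuH7 in ovo replicate 3 the HuH7 difference was -1.26 (adjusted p = 0.122), and without any 1 in vitro library of HuH7 its adjusted p was 0.0632 to 0.0838. The SHMT2 amplicon, 248 bases, belongs to a class that was low in ovo as a whole. The 580 tested amplicons of 240 bases or more had median log2 differences of -0.46 in HepG2, -1.08 in Hep3B, -0.65 in HuH7, with -0.16 in PLC/PRF/5. With the length and GC trends removed, SHMT2 stood at -1.82 in HepG2 (adjusted p = 0.00585), -1.80 in Hep3B (0.00419), -1.45 in HuH7 (0.02), with 0.14 in PLC/PRF/5.

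SHMT1, the cytosolic counterpart, followed another pattern. HuH7 had 21.0, 20.9, 11.8 and 26.0 CPM in ovo, against 35.6, 40.2 and 40.3 CPM in vitro, a log2 difference of -0.97 (adjusted p = 0.00222) with no overlap. HepG2 had 42.1, 35.5, 21.6 and 37.9 CPM in ovo, against 31.7, 28.2 and 28.5 CPM in vitro. Of the HepG2 in ovo libraries, 3 were above and the library numbered 3 was below the whole in vitro range (log2 difference 0.18, adjusted p = 0.642, 95% interval -0.31 to 0.66). PLC/PRF/5 had 38.8, 47.3, 46.4 and 36.3 CPM in ovo, against 59.5, 60.5 and 56.0 CPM in vitro, without overlap and not called (-0.47, adjusted p = 0.184, 95% interval -0.96 to 0.02). Hep3B had 4, 3, 0 and 0 reads in ovo, against 0, 0 and 0 reads in vitro, and no fold is given where both groups are at or near the floor. Its 2 in ovo libraries with SHMT1 reads were replicates 1 and 2. The responses of SHMT1 differed between lines (interaction, adjusted p = 0.00827), with HepG2 above HuH7 by 1.15 log2 units (0.0147). In the mean over lines it was -0.23 (adjusted p = 0.0847) by limma and 0.81 (0.0282) by edgeR, whose estimate holds the near-empty Hep3B groups.

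Within each library, the log2 ratio of SHMT2 reads to SHMT1 reads needs no scaling between libraries and no pseudocount. Amplicons read with unequal efficiency, so a ratio of 0 is not equal abundance and only its shift can be compared. In HepG2 the ratio was -0.65 ± 0.89 in ovo (SD, n = 4) and 1.71 ± 0.09 in vitro (SD, n = 3). In HuH7 it was -0.30 ± 0.53 in ovo and 0.44 ± 0.05 in vitro. In PLC/PRF/5 it was 1.70 ± 0.13 in ovo and 1.12 ± 0.10 in vitro. The in ovo and in vitro ratios did not overlap in any of these lines, lower in ovo in HepG2 and HuH7 and higher in ovo in PLC/PRF/5. SHMT2 has the longer amplicon of the pair, and the part of the length trend in this ratio was not tested. No ratio is given for Hep3B, where SHMT1 was at or near 0 reads.

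MTHFD2, the mitochondrial dehydrogenase and cyclohydrolase, had the smallest interaction p of the 9 enzymes tested. In Hep3B its level was 25.7, 19.2, 16.9 and 28.6 CPM in ovo, against 151, 151 and 161 CPM in vitro. In HepG2 it was 96.8, 92.0, 68.1 and 79.1 CPM in ovo, against 378, 351 and 364 CPM in vitro. The groups stood far apart in both lines, and the libraries numbered 3 lay close to the others. HuH7 had 88.3, 35.9, 63.3 and 33.3 CPM in ovo, against 108, 104 and 105 CPM in vitro, with no overlap. The line PLC/PRF/5 held 200, 462, 234 and 240 CPM in ovo, against 340, 330 and 336 CPM in vitro. There, 3 in ovo libraries were under the in vitro range and replicate 2 was over it.

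The log2 difference of MTHFD2 was -2.75 in Hep3B (adjusted p = 1.56e-08), -2.12 in HepG2 (1.72e-06) and -1.04 in HuH7 (0.0037), each with a standard error of 0.27. In PLC/PRF/5 it was -0.32 (adjusted p = 0.475, 95% interval -0.88 to 0.24), and in the mean over lines -1.56 (1.44e-09). The lines differed in response (interaction, adjusted p = 5.3e-05). Of the 9 enzymes, 2 passed that test, MTHFD2 and SHMT1, beside 41.7% of all genes. The fall in Hep3B was larger than in HuH7 (difference of responses -1.71, adjusted p = 0.00169) and than in PLC/PRF/5 (-2.43, 4.05e-05). The fall in HepG2 was larger than in PLC/PRF/5 (-1.80, adjusted p = 0.00138) and, less firmly, than in HuH7 (-1.08, 0.0447). That last difference was called in 12 of 27 alternatives, with adjusted p from 0.011 to 0.106, and not without the in ovo libraries numbered 3 (0.0852). HepG2 and Hep3B were not shown to differ (0.63, adjusted p = 0.254). Over all genes, such tests between responses called 23.7% for HepG2 against Hep3B, 21.6% for HepG2 against HuH7 and 15.4% for HepG2 against PLC/PRF/5. They called 20.4% for Hep3B against HuH7, 25.9% for Hep3B against PLC/PRF/5 and 16.8% for HuH7 against PLC/PRF/5. With the length and GC trends removed, the HuH7 difference of MTHFD2 was -0.46 (adjusted p = 0.215), while those of HepG2 and Hep3B stayed called.

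**Figure D2:**
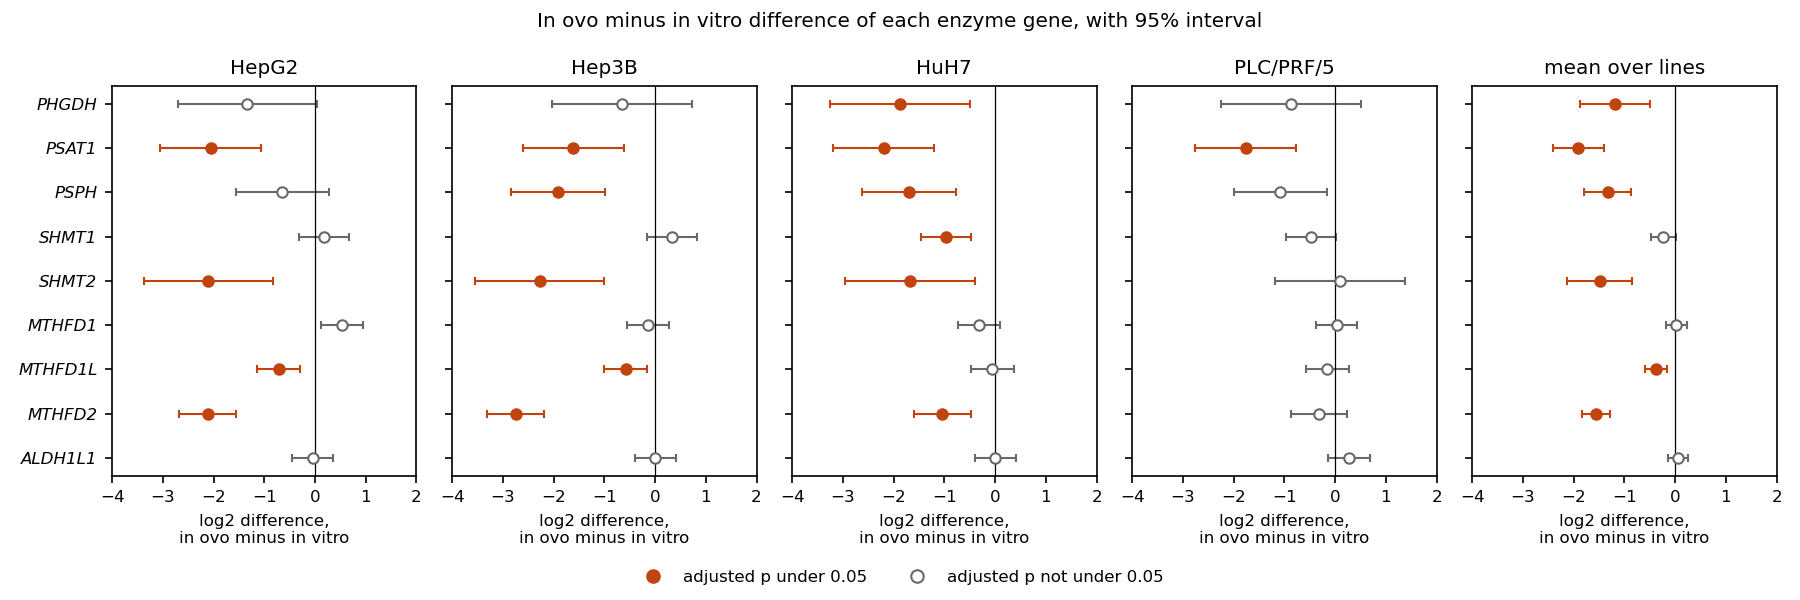
Log2 difference in ovo minus in vitro with its 95% interval for the 9 tested enzymes, in each line and in the mean over lines. Filled points have an adjusted p under 0.05. PSAT1 is filled in all 4 lines, from -2.20 to -1.61, and the MTHFD2 points run from -2.75 in Hep3B to -0.32 in PLC/PRF/5.

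MTHFD1, the cytosolic enzyme that joins formate to tetrahydrofolate and reduces it, was called in none of the 4 lines by limma. In HepG2 it had 153, 154, 265 and 178 CPM in ovo, against 122, 131 and 126 CPM in vitro, with each in ovo library above each in vitro library. In Hep3B it had 95.3, 107, 126 and 108 CPM in ovo, against 117, 121 and 120 CPM in vitro. In PLC/PRF/5 it had 256, 226, 277 and 275 CPM in ovo, against 276, 230 and 255 CPM in vitro. Both of these lines overlapped. In HuH7 it had 77.1, 55.1, 90.6 and 42.1 CPM in ovo, against 78.6, 81.8 and 78.6 CPM in vitro, where 3 in ovo libraries were lower and the library numbered 3 was higher. The in ovo library numbered 3 had the highest MTHFD1 of its group in all 4 lines, whereas it had the lowest PSAT1 in all 4.

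The HepG2 difference of MTHFD1, 0.53 (95% interval 0.12 to 0.94), missed the threshold by limma (adjusted p = 0.0545) and passed it in 9 of 21 alternatives, among them edgeR (0.57, 0.0471), DESeq2 (0.61, 0.0298) and limma without the in ovo libraries numbered 3 (0.37, 0.0497). It was -0.14 in Hep3B (adjusted p = 0.591, 95% interval -0.55 to 0.27), -0.32 in HuH7 (0.195, -0.73 to 0.09) and 0.03 in PLC/PRF/5 (0.96, -0.38 to 0.44). The mean over lines was 0.02 (adjusted p = 0.841, 95% interval -0.18 to 0.23). Scaled by total counts alone, which moves the median of all genes by -0.74 in Hep3B and -0.30 in the mean, MTHFD1 stood at -1.14 in Hep3B and -0.42 in the mean. The HepG2 response was above the HuH7 response by 0.85 log2 units (adjusted p = 0.0319), called in 16 of 27 alternatives. Without the in ovo libraries numbered 3 the HuH7 difference was -0.48 (adjusted p = 0.00795).

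The log2 ratio of MTHFD2 to MTHFD1 reads within a library was lower in ovo in 3 lines without overlap. It was -1.13 ± 0.60 in ovo and 1.53 ± 0.10 in vitro in HepG2 (SD, n = 4 and 3). In Hep3B it was -2.29 ± 0.48 in ovo and 0.37 ± 0.06 in vitro. In HuH7 it was -0.32 ± 0.36 in ovo and 0.41 ± 0.06 in vitro. In PLC/PRF/5 the groups overlapped, at 0.06 ± 0.65 in ovo and 0.41 ± 0.11 in vitro. These amplicons have 154 and 128 bases, closer in length than the SHMT pair. They are further apart in GC content, at 46.1% for MTHFD2 and 53.9% for MTHFD1, against 59.3% for SHMT2 and 59.7% for SHMT1. The part of the GC and length trends in this ratio was not tested.

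**Figure D3:**
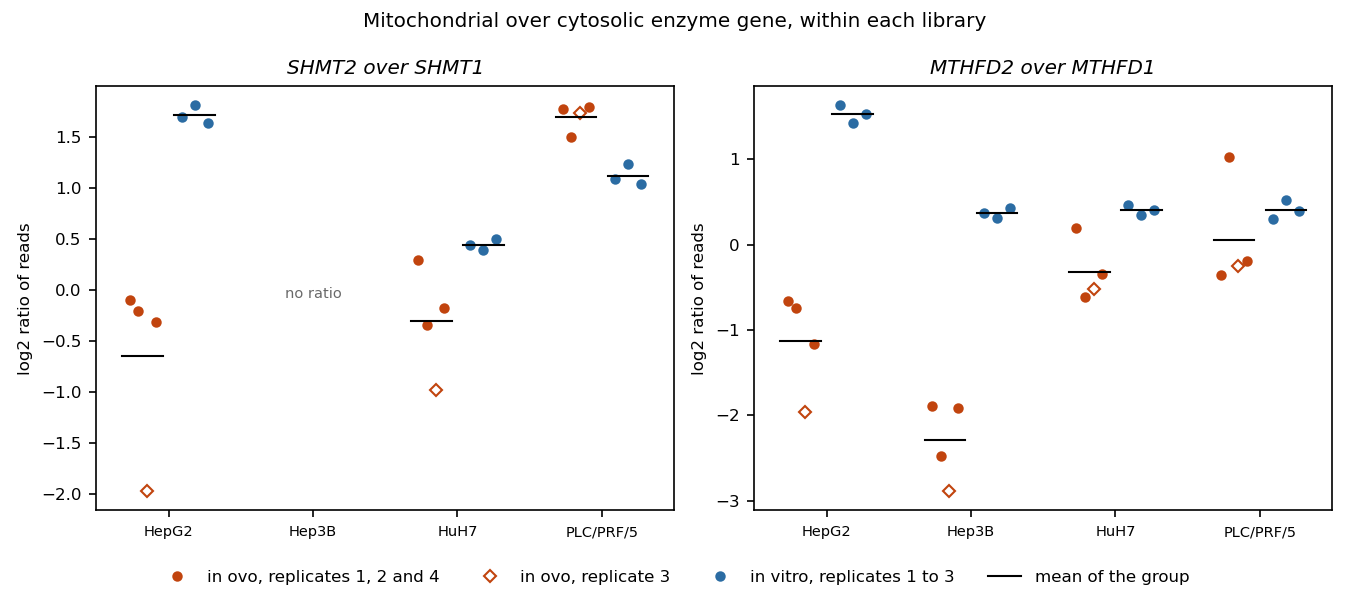
Log2 ratio of the reads of SHMT2 over SHMT1 (left, none for Hep3B) and of MTHFD2 over MTHFD1 (right) within each library, by line, in ovo (orange) left of in vitro (blue). Black lines are group means. MTHFD2 over MTHFD1 averages -1.13 in ovo and 1.53 in vitro in HepG2, and the PLC/PRF/5 groups overlap.

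MTHFD1L, which makes formate in mitochondria, was near the floor in every library, at 0 to 1.81 CPM. HepG2 averaged 0.376 CPM in ovo and 1.25 CPM in vitro, and Hep3B averaged 0.0530 CPM in ovo and 0.577 CPM in vitro. The tests called both lower, by -0.71 log2 units in HepG2 (adjusted p = 0.0121) and -0.58 in Hep3B (0.021). HuH7 averaged 0.342 CPM in ovo and 0.348 CPM in vitro, PLC/PRF/5 averaged 0.993 CPM in ovo and 1.24 CPM in vitro, and neither was called. Hep3B had 2, 0, 0 and 0 reads of MTHFD1L in ovo, against 3, 5 and 6 reads in vitro. The call held in 13 of 19 alternatives in HepG2 and in 14 of 19 in Hep3B. With the GC and length trends removed, Hep3B stood at 0.53 (adjusted p = 0.187), in the other direction.

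ALDH1L1, the cytosolic formyltetrahydrofolate dehydrogenase, was read in HepG2 and was at or near 0 elsewhere. HepG2 had 14.4, 14.5, 32.4 and 21.2 CPM in ovo, against 21.2, 17.8 and 22.1 CPM in vitro, and was not shown to differ (-0.05, adjusted p = 0.901, 95% interval -0.45 to 0.35). Every Hep3B and HuH7 library had 0 reads, and PLC/PRF/5 had at most 5. Set against the floor of 3 reads, HepG2 was at least 25.6-fold above Hep3B and 40.1-fold above HuH7 in ovo, and at least 62.2-fold above HuH7 in vitro. ALDH1L2, its mitochondrial relative, had at most 4 reads in any library and some in 14 of the 28. It was not tested.

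Between lines, 6 of the 9 enzymes differed in ovo and 5 in vitro, beside 85.8% and 71.4% of all genes. ALDH1L1, counted in both, had enough reads to be tested through HepG2 alone, so its calls between lines follow from that and are no separate result. ALDH1L1, SHMT1, MTHFD1, MTHFD1L and MTHFD2 differed in both settings and SHMT2 in ovo (adjusted p = 5.69e-05 in ovo and 0.345 in vitro). Without the in ovo libraries numbered 3, SHMT2 differed in vitro as well (adjusted p = 7.28e-05), and so did PHGDH (0.000146, against 0.0659 with all libraries). The in vitro libraries are the same in that setting, and the spread shared by the groups is smaller. PHGDH (adjusted p = 0.0163) and PSPH (0.0214) then differed in ovo too. In vitro, SHMT1 was at least 72.4-fold higher in HepG2, 95.2-fold in HuH7 and 144-fold in PLC/PRF/5 than the floor of Hep3B. In ovo, SHMT2 was lower than in PLC/PRF/5 in the other lines, by a log2 difference of -2.59 in HepG2 (adjusted p = 0.000407), -3.01 in Hep3B (6.18e-05) and -3.03 in HuH7 (5.74e-05). MTHFD2 ran from PLC/PRF/5 through HepG2 and HuH7 down to Hep3B in ovo, with all 6 pairs of lines called. In vitro HepG2 and PLC/PRF/5 were not shown to differ in MTHFD2 (0.12, adjusted p = 0.783), nor were Hep3B and HuH7 (0.54, 0.162). MTHFD1 ran from PLC/PRF/5 through HepG2 and Hep3B down to HuH7 in ovo, with all 6 pairs called, and in vitro HepG2 and Hep3B were not told apart (0.08, adjusted p = 0.826). PSAT1 was not shown to differ between lines in ovo (adjusted p = 0.0635) or in vitro (0.566), and without those libraries it differed in ovo (0.012). In ovo, the tests between 2 lines called 50.4% of all genes for HepG2 against Hep3B, 52.9% against HuH7 and 55.3% against PLC/PRF/5, 49% for Hep3B against HuH7 and 66.3% against PLC/PRF/5, and 63.6% for HuH7 against PLC/PRF/5. The shares in vitro were 39.9%, 44.6%, 50.9%, 33.8%, 46.3% and 49.1% in the same order of pairs.

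The length trend differed between in ovo libraries. The Spearman correlation of a library's log2 differences with amplicon length ran from -0.59 to -0.17 in the 4 in ovo libraries numbered 3 and from -0.50 to -0.02 in the other 12. In Hep3B in ovo replicate 3, where it was -0.59, SHMT2 stood at -4.70 log2 units from the in vitro mean, PHGDH at -2.30 and PSAT1 at -2.19. Not all libraries followed that order. In HuH7, PSAT1 was at -1.33 in replicate 1 (correlation -0.37) and at -1.78 in replicate 4 (-0.02), and MTHFD2 was at -0.26 and -1.64 in the same libraries. In Hep3B, PSAT1 was at -0.76 in replicate 4 (-0.41) and at -1.72 in replicate 1 (-0.21). SHMT2 in PLC/PRF/5 stayed between -0.02 and 0.27. MTHFD2 in HepG2 was at -1.90 in replicate 1 (-0.06) and at -2.40 in replicate 3 (-0.36). Beyond the values with the trends removed, the part of length and GC content in these differences was not tested.

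**Figure D4:**
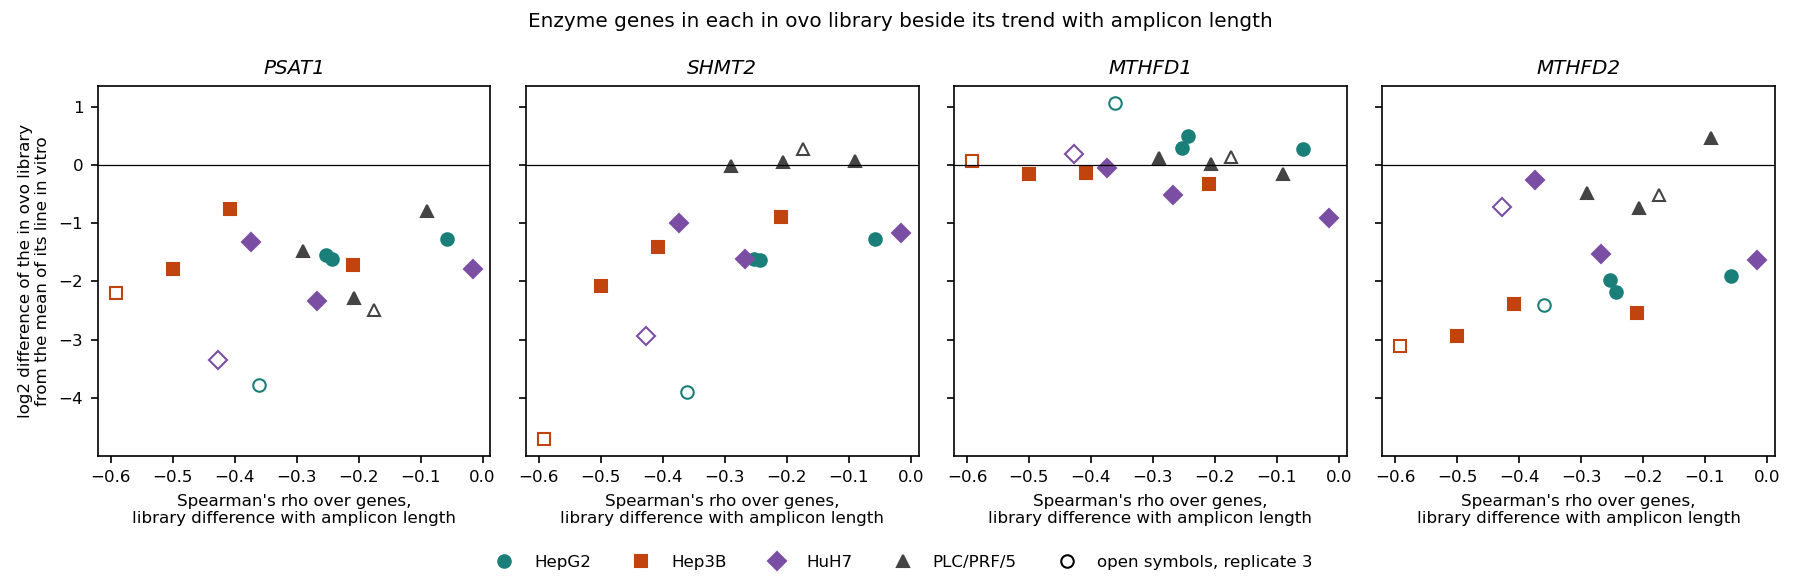
Log2 difference of each in ovo library from the in vitro mean of its line, for PSAT1, SHMT2, MTHFD1 and MTHFD2 (vertical axis), against the Spearman correlation of that library's differences with amplicon length (horizontal axis). Open points are the libraries numbered 3. PSAT1 is below 0 in all 16 libraries, and the lowest SHMT2 point, -4.70, has the most negative correlation, -0.59.

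Genes that supply or use the same carbon were counted from lists set with earlier results of these data known. All list counts below stand beside the shares of all genes, which differ by line. These were 12.4% lower and 12.6% higher in HepG2, and 26.7% and 25.3% in Hep3B. They were 19.5% and 23.9% in HuH7, and 5.62% and 11.7% in PLC/PRF/5. Some counts lie near these shares, such as that of serine and glycine transport and breakdown in Hep3B. SLC25A32, the carrier that brings folate into mitochondria, was lower in 3 lines. In HepG2 it had 5.55, 3.39, 1.63 and 2.94 CPM in ovo, against 11.5, 12.6 and 10.9 CPM in vitro. Its log2 difference was -1.61 in HepG2 (adjusted p = 6.7e-05), -2.49 in Hep3B (6.79e-08), -1.57 in HuH7 (6.07e-05), with -0.44 in PLC/PRF/5 (0.294). Of 15 tested genes of folate uptake and reduction, 1 was lower and 3 higher in HepG2, 6 lower and 3 higher in Hep3B, 5 lower and 1 higher in HuH7, and 2 lower and 0 higher in PLC/PRF/5. FTCD, which feeds histidine carbon to folate, was higher in Hep3B (2.15) and HepG2 (1.05).

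Of 14 genes of de novo purine synthesis, a main use of formyltetrahydrofolate, 1 was lower and 0 higher in HepG2, 7 lower and 2 higher in Hep3B, 7 lower and 0 higher in HuH7, and 1 lower and 2 higher in PLC/PRF/5. PAICS was lower in Hep3B (-2.59, adjusted p = 0.000309) and HuH7 (-2.08, 0.00314), and IMPDH1 in HepG2 (-1.50, 1.68e-05) and Hep3B (-1.33, 4.02e-05). Of 10 genes of glycine cleavage and choline-derived supply, 0 were lower and 6 higher in HepG2, 1 lower and 5 higher in Hep3B, 5 lower and 1 higher in HuH7, and 0 lower and 5 higher in PLC/PRF/5. GATM, which draws on glycine for creatine, was higher in HepG2 (3.29), Hep3B (1.70) and HuH7 (2.61). It was also called higher in PLC/PRF/5 (adjusted p = 0.0454), a call that held in 10 of 20 alternatives. PIPOX, an oxidase of pipecolate and sarcosine, was higher in Hep3B (4.35), PLC/PRF/5 (1.45) and HepG2 (adjusted p = 0.0051). Of 15 genes of the methionine cycle and transsulfuration, 2 were lower and 2 higher in HepG2, 2 lower and 8 higher in Hep3B, 4 lower and 1 higher in HuH7, and 2 lower and 1 higher in PLC/PRF/5. BHMT, the betaine methyltransferase of liver, was higher in HepG2 (3.07) and Hep3B (3.59). Of 15 genes that move or break down serine and glycine, 4 were lower and 5 higher in HepG2, 4 lower and 6 higher in Hep3B, 9 lower and 2 higher in HuH7, and 0 lower and 2 higher in PLC/PRF/5. Among them AGXT, which turns glyoxylate into glycine, was higher in HepG2 (1.82), Hep3B (4.67) and PLC/PRF/5 (1.82). SLC38A2, a carrier of small neutral amino acids, was lower in HepG2 (-3.21), in Hep3B (adjusted p = 0.00136) and in HuH7 (0.00124). GATM, PIPOX, BHMT, FTCD and AGXT are genes of the hepatocyte, and the summed hepatocyte markers were higher in ovo in HepG2, Hep3B and PLC/PRF/5 and lower in HuH7. Their part in these counts was not tested.

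ATF4 was lower in ovo in HepG2, Hep3B and HuH7. MTHFD2 and SHMT2 were called in these lines too, in HuH7 in 20 of 21 alternatives for MTHFD2 and 17 of 21 for SHMT2. Any part of ATF4 in the levels of the enzymes was not tested. PSAT1 was called in PLC/PRF/5 as well, and PHGDH was called in HuH7 alone. HepG2 had 486, 363, 255 and 332 CPM of ATF4 in ovo, against 970, 829 and 901 CPM in vitro. ATF4 in PLC/PRF/5 read 448, 687, 526 and 532 CPM in ovo, against 555, 498 and 550 CPM in vitro. The log2 difference of ATF4 was -1.36 in HepG2 (adjusted p = 7.36e-06), -1.08 in Hep3B (6.66e-05), -0.96 in HuH7 (0.000358), with 0.02 in PLC/PRF/5 (0.969). Of 24 genes in the list of ATF4 and its targets, which left out the enzymes described above, 14 were lower and 0 higher in HepG2, 12 lower and 3 higher in Hep3B, 12 lower and 2 higher in HuH7, and 5 lower and 0 higher in PLC/PRF/5. SLC7A11, the cystine carrier, was lower in HepG2 (-3.41), Hep3B (-2.49), HuH7 (-2.75) and PLC/PRF/5 (-2.71). TRIB3, a pseudokinase, was lower in HepG2 (-2.64), Hep3B (-1.88) and HuH7 (-2.62). CTH, the last enzyme of transsulfuration, was lower in HepG2 (-1.75), HuH7 (-1.39) and PLC/PRF/5 (-1.15). The median over the list was -1.09, -0.77, -0.69 and -0.22 in the order HepG2, Hep3B, HuH7, PLC/PRF/5. The list was set with earlier results of these data known and shares CTH with the methionine list. It describes levels of RNA, not activity of the factor.

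Of 10 regulators, which include ATF4, 4 were lower and 0 higher in HepG2, 2 lower and 1 higher in Hep3B, 3 lower and 0 higher in HuH7, and 0 lower and 2 higher in PLC/PRF/5. SREBF1, a regulator of lipid synthesis, was lower in HepG2 (-2.90), Hep3B (-2.10) and HuH7 (-2.50). Genes of DNA synthesis and mitosis, 14 in all, moved unlike in the lines, with 0 lower and 7 higher in HepG2, 8 lower and 2 higher in Hep3B, 9 lower and 0 higher in HuH7, and 1 lower and 0 higher in PLC/PRF/5. CDK1, the mitotic kinase, was lower in Hep3B (-3.44, adjusted p = 1.41e-05) and in HuH7 (adjusted p = 0.000588). Where a count of a list is 0, limma at an unadjusted p under 0.05 gave 0 to 4 genes, edgeR at most 2 and DESeq2 at most 4.

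**Figure D5:**
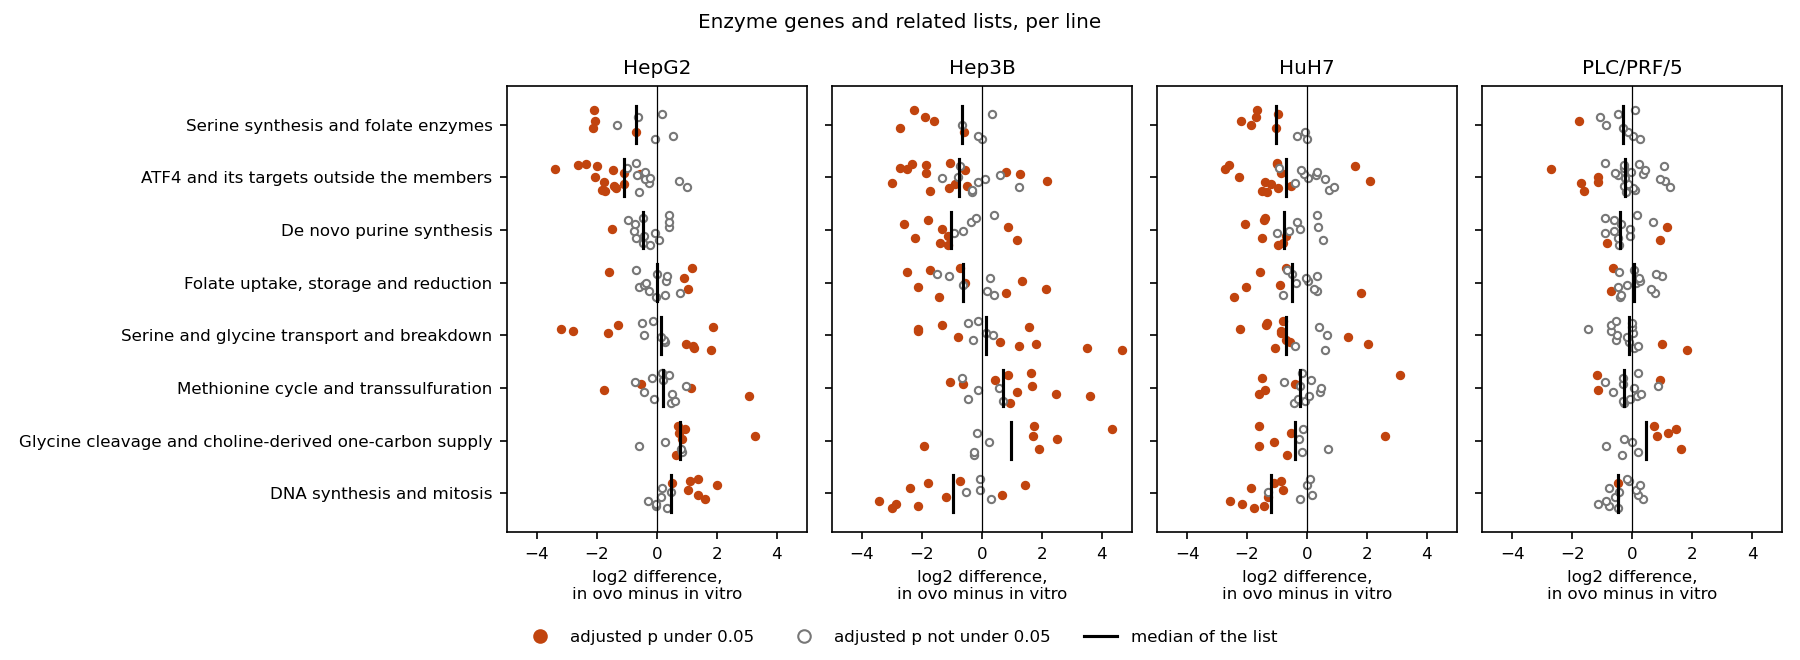
Log2 differences in ovo minus in vitro of the tested enzymes and of 7 lists of related genes in each line, 1 dot a gene, with the median of each list as a bar. The medians of the ATF4 list are -1.09 in HepG2, -0.77 in Hep3B, -0.69 in HuH7, with -0.22 in PLC/PRF/5.

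The promoters were searched for TGATGNAA, the letters to which ATF4 binds with its partners, on both strands of the RefSeq windows from 250 bases before to 50 bases after each start on GRCh38.p14. Windows were held for 7 of the 10 genes, and PSPH, SHMT2 and ALDH1L2, which had none, were not searched. MTHFD1L alone had a match, shown with 10 bases on each side and the match in capitals at chr6:150866357-150866364 on the plus strand, and 1270 of the 35116 windows of all genes had one (3.62%). In the MTHFD1L windows that hold it, its first base lay at -129, -90 and 24 from the start. The MTHFD1L amplicon begins before the match, at chr6:150866032, and the windows of this gene begin at 150866083 or later. The start of the transcript measured was thus not searched, and the match lies downstream of it.
MTHFD1L: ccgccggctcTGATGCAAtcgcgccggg

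Over the 28 libraries, with each line centred on its own mean, the 3 enzymes of serine synthesis moved together: Pearson's r was 0.874 between PHGDH and PSAT1, 0.847 between PSAT1 and PSPH and 0.837 between PHGDH and PSPH. It was 0.757 between PSAT1 and MTHFD2, -0.03 between SHMT1 and MTHFD2 and -0.52 between PHGDH and MTHFD1. These values hold the difference between in ovo and in vitro and share depth and amplicon trends, so they are descriptions. Among all tested genes, the patterns most like PSAT1 were EPRS (0.967), TCEA1 (0.952) and GFPT1 (0.950). Those most like PHGDH were GFPT1 (0.941), IARS (0.933) and TOMM70 (0.932). MTHFD2 was most like ATOH8 (0.940), PHACTR2 (0.927) and ATF4 (0.922), SHMT2 most like SMAD4 (0.957), DPH1 (0.953) and DDX21 (0.951), and MTHFD1 most like PCNA (0.920), HIST1H3H (0.899) and H2AFV (0.888). The nearest genes to PSPH, SHMT1, MTHFD1L and ALDH1L1 were MRPS18A (0.960), ANKRD46 (0.844), MAP7D1 (0.767) and TWIST2 (0.867).

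Markers of other cell types were read in both settings. Summed over 7 fibroblast markers, HepG2 libraries held 4.20 to 4.80 CPM in ovo and 18.5 to 21.8 CPM in vitro, and those of PLC/PRF/5 59.6 to 88.8 CPM in ovo and 139 to 189 CPM in vitro. Hep3B held 279 to 528 CPM in ovo and 103 to 105 CPM in vitro, and HuH7 553 to 862 CPM in ovo and 348 to 368 CPM in vitro. The fibroblast sums thus overlapped in no line, with 2 lines lower and 2 higher in ovo. Over 7 endothelial markers HepG2 held 51.7 to 64.4 CPM in ovo and 39.7 to 47.1 CPM in vitro, Hep3B held 9.94 to 12.6 CPM in ovo and 4.31 to 5.15 CPM in vitro, and the other lines overlapped. Over 6 leukocyte markers HepG2 held 9.38 to 65.5 CPM in ovo and 382 to 399 CPM in vitro, HuH7 held 5.83 to 10.9 CPM in ovo and 37.3 to 41.8 CPM in vitro, and the other lines overlapped. Of the 7 endothelial markers 5 averaged under 1 CPM in each setting. The part of these markers in the values of the enzymes was not tested. The 2 erythroid markers in the table were at 0 in every library.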

How the data were processed

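Expression was measured with a targeted amplicon kit (DriverMap) from 500 ng of total RNA per library, per the labels' protocols. The authors deposited a scaled signal for each amplicon, with a total of 500000 in every library. The submitters' processing notes name hg38 as build, and which aligner and counter were run is not given in the sources used here. Equal steps between low values gave whole reads back, with 99.9684% or more of a library's values no further than 0.01 from a whole read and a largest departure of 0.114. A damaged cell (KRT18, PLC/PRF/5 in ovo replicate 2) took the shortfall of its library, 4021 CPM.

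Values were rescaled to CPM and scaled by TMM. Genes passing edgeR's filterByExpr (10 reads, by group) numbered 13100 of 18961, and 5861 were not tested. limma 3.58.1 in R 4.3.3, with a trended variance on log2(CPM + 1), was fitted once to the 8 groups (20 residual degrees of freedom), since the values are scaled and not raw counts. Each gene thus has 1 estimate of spread shared by the 8 groups, so the interval and p value of a line hold the scatter of the other lines too. Fold changes are on the log2(CPM + 1) scale, which understates those of low genes. All tests are two-sided, Benjamini-Hochberg adjustment ran over all genes of a contrast, and called means an adjusted p under 0.05. The 6 differences between pairs of lines were adjusted in the same way, each alone. Floors and intervals cover counting error or the spread of these libraries only. The test was tried on simulated counts.

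edgeR 4.0.16 (quasi-likelihood) and DESeq2 1.42.0 on the recovered reads, other scalings, filters and pseudocounts, removal of GC and length trends, libraries left out, a replicate block and the letter of the in ovo libraries as a random effect (duplicateCorrelation) were alternatives. The members, lists and alternatives were chosen with earlier results of these data known. Named genes are the 10 enzymes, up to 4 called genes per list and contrast by smallest adjusted p, from which some are printed and the 3 genes most like each enzyme. Results on some genes and 1 amplicon sequence are not reported here. Amplicon sequences were placed by exact match to GENCODE transcripts.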

Additional observations from a re-analysis of the deposited data

Results flagged for a closer look

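Between lines, the response of an enzyme (in ovo minus in vitro) differed past an adjusted p of 0.05 as follows. MTHFD2 differed over the 4 lines (adjusted p = 5.3e-05), between Hep3B and PLC/PRF/5 (4.05e-05), HepG2 and PLC/PRF/5 (0.00138), Hep3B and HuH7 (0.00169), and HepG2 and HuH7 (0.0447, called in 12 of 27 alternatives). SHMT1 differed over the 4 lines (adjusted p = 0.00827), between Hep3B and HuH7 (0.00579) and between HepG2 and HuH7 (0.0147), and Hep3B has almost no SHMT1 reads. SHMT2 differed between Hep3B and PLC/PRF/5 (adjusted p = 0.0481, called in 10 of 27 alternatives) and MTHFD1 between HepG2 and HuH7 (0.0319, called in 16 of 27).

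Of 37 in ovo groups of 4 libraries checked for a lone library far from the rest, 5 held one. The limit used is meant to be passed by about 1 in 20 groups of continuous values. It does not hold for groups with reads in only 1 library, where the gap always fills the range. The count of 5 can thus not be set against 1 in 20. The gap of that library over the range of the group, past Dixon's limit for 4 values, was 0.849 for MTHFD2 in PLC/PRF/5 in ovo replicate 2, the highest of its group at 462 CPM. It was 0.903 for MTHFD1L in PLC/PRF/5 in ovo replicate 4, the lowest of its group, and 1 for MTHFD1L in Hep3B in ovo replicate 1, the only library of its group with reads. It was 1 for ALDH1L2 in HepG2 in ovo replicate 1 and in PLC/PRF/5 in ovo replicate 3, each with 1 read against 0 in the others.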

How the results depend on the processing

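Over the 9 tested enzymes, 3500 of 3661 values recomputed under the alternatives kept their direction and side of the threshold, 72 lost a call, 84 gained one and 5 turned. The values that turned were MTHFD1 in the mean (-0.42) and MTHFD1 in Hep3B minus HuH7 response (-0.55) with total counts, SHMT1 in the mean by edgeR (0.81), and MTHFD1L in Hep3B (0.53) and the mean (0.305) with GC and length trends removed. Of 1868 values of the 15 related genes named, 1832 kept both, 13 lost a call, 23 gained one and 0 turned.

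The enzymes called in PLC/PRF/5 numbered 1, and 3 by DESeq2, with each line fitted alone, and with the in ovo libraries numbered 3 left out. That last setting gave 4 enzymes in the interaction, against 2. Genes called in PLC/PRF/5 numbered 2263, 3747 with each line alone and 3792 without the libraries numbered 3. Genes called in HuH7 numbered 5687, and 3733 with each line alone. With 1 library left out, the enzymes called ranged from 3 to 5 in HepG2, 4 to 5 in Hep3B, 4 to 6 in HuH7, 0 to 1 in PLC/PRF/5, 5 to 7 in the mean, 2 to 4 in the interaction, 4 to 6 between lines in vitro and 5 to 9 in ovo. Genes called ranged from 2324 to 3771, 5653 to 7314, 4322 to 6682, 1354 to 2405, 8402 to 8987, 4881 to 6485, 8955 to 9927 and 10879 to 11691 in the same order. The call of PSAT1 in PLC/PRF/5 held in 20 of 21 alternatives, and PSAT1, PSPH, SHMT2 and MTHFD2 in Hep3B held in all 21 each.

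Total counts moved the median of all genes by -0.18 in HepG2, -0.74 in Hep3B, -0.13 in HuH7, with -0.07 in PLC/PRF/5, and the split of higher against lower calls to 1199 and 2080, 1205 and 6820, 2528 and 3041, and 1277 and 1202. DESeq2's size factors gave 1175 and 1047 in PLC/PRF/5, against 1527 and 736. Over 27 alternatives the response differences with the weakest calls had adjusted p up to 0.0926 for SHMT2 (Hep3B and PLC/PRF/5), 0.106 for MTHFD2 and 0.122 for MTHFD1 (both HepG2 and HuH7).

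Same-numbered in ovo and in vitro libraries of a line were not taken as pairs. The correlations of their deviations ran from -0.0967 to 0.457 over 12 pairs, 5 of them over 0.1. Pairs of unlike number were not compared, so whether the libraries pair was not tested. With the replicate block, 3, 4, 6 and 1 enzymes were called in HepG2, Hep3B, HuH7 and PLC/PRF/5, 6 in the mean and 2 in the interaction. With the letter of the in ovo libraries as a random effect, chosen after the data were seen, they numbered 5, 5, 6 and 1, with 6 in the mean and 2 in the interaction. Depth limits MTHFD1L, ALDH1L2, SHMT1 in Hep3B and ALDH1L1 outside HepG2. Apart from the values that rest on fewer libraries, the cause of these shifts was not tested.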
